A study of Mus musculus with 4 samples.

Results

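Epithelial cells are held together by cadherins and claudins and are braced from within by keratin filaments, and the genes of these proteins were compared between 2 kinds of mouse pluripotent cells. The group was set by name, with earlier results of these data known. It held the simple epithelial keratin genes Krt7, Krt8, Krt18 and Krt19 and the E-cadherin gene Cdh1. It also held the adhesion gene Epcam and the claudin genes Cldn3, Cldn4, Cldn6 and Cldn7. Of these 10 genes, 9 were measured, each by 1 probe, among 16593 genes and 25697 probes in all, and Epcam was not analysed here. Total RNA was hybridised to Illumina mouse bead arrays, with 2 arrays of epiblast stem cells (EpiSCs) and 2 arrays of cells named parnate/mAMFGi. EpiSCs are pluripotent cells of the postimplantation epiblast. Per the labels, they grew on irradiated mouse embryonic fibroblasts (MEFs) in serum replacement medium with bFGF. The parnate/mAMFGi cells, labelled as converted mouse ESCs, had been converted from EpiSCs with small molecules. Parnate (tranylcypromine) inhibits the histone demethylase LSD1, and the labels do not spell out mAMFGi. Their growth text names serum medium with LIF on the same kind of feeders and does not say whether the small molecules were still present. Medium and cell state therefore cannot be told apart. The labels name no cell line or clone, and call the 2 samples of a group biological replicates.

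Keratins form filaments only as pairs of a type II with a type I chain. Krt8 and Krt7 encode type II chains, Krt18 and Krt19 type I chains, and Krt8 with Krt18 is the pair that simple epithelia and the early embryo's outer layer make first. E-cadherin joins neighbouring cells at adherens junctions, through catenins, to actin, and it is present in both ES cells and the epiblast. Claudins are membrane proteins that form the strands of tight junctions and set which ions pass between cells.

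In parnate/mAMFGi cells, 6 of the 9 measured genes fell, 2 rose and 1, Krt7, did not pass the test. The test was limma with Benjamini-Hochberg adjustment over all probes and a threshold of 0.05. It called 41.5% of all genes, with 21.2% lower and 20.2% higher, so the 8 of 9 called here are to be read against that share. Because the genes were chosen with earlier results of these data known, these shares are a background and no test of the group. For the same 8 genes the 2 groups of arrays did not overlap, as was so for 66.1% of all genes. Changes of at least 2-fold numbered 4 down and 2 up, where 6.32% of all genes passed and fell that far and 5.11% passed and rose that far. Changes of at least 4-fold downward numbered 3, all keratins, against 1.11% of all genes. The median log2 fold change was −0.59 over the 9 genes and 0.02 over all genes, and the median of its absolute size was 1.22 against 0.19. The 9 genes were also brighter, with a median mean log2 intensity of 8.53 against 5.81 over all genes. The shares and medians over all genes were not matched for intensity. Positive log2 fold changes are higher in the converted cells. The plot of intensities by array shows the 9 genes in both groups.

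**Figure D1:**
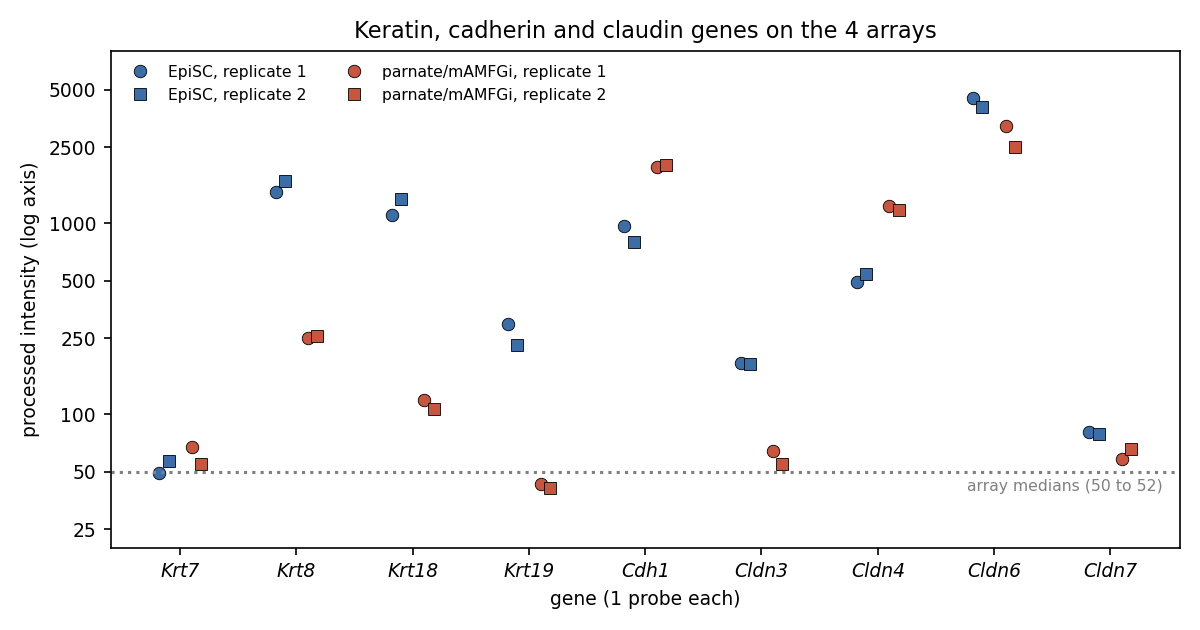
Processed intensity of each gene's probe on a log axis, for 2 EpiSC arrays (blue) and 2 parnate/mAMFGi arrays (red), with the array medians of 50 to 52 as a dotted line. Krt8, Krt18 and Krt19 lie well below their EpiSC values in both parnate/mAMFGi arrays, Cdh1 and Cldn4 lie above them, and the groups overlap for Krt7.

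The keratin genes gave the largest changes. Krt18, the type I chain of the Krt8 and Krt18 filament, read 1099 and 1343 in the EpiSC arrays and 118.6 and 106.1 in the parnate/mAMFGi arrays. Both converted arrays lay far below both EpiSC arrays. The fall was 10.8-fold (log2 fold change −3.44, SE 0.11, 95% interval −3.68 to −3.20, limma adjusted p = 8.28e-12), and it ranked 21 among 16593 genes ordered from the largest fall. Its type II partner Krt8 read 1466 and 1661 in EpiSCs and 251.7 and 258.2 in parnate/mAMFGi cells. The groups did not overlap, and the fall was 6.12-fold (log2 fold change −2.61, SE 0.10, limma adjusted p = 3.95e-11), at rank 71. Krt8 thus kept an intensity well above the array medians, whereas Krt19 did not. Krt19, a short type I keratin that can also pair with Krt8, read 296.4 and 231.8 in EpiSCs and 43.4 and 40.9 in parnate/mAMFGi cells. The converted arrays' values stood at the 35.2 and 27.5 percentiles of their own arrays, below the medians. The fall was 6.22-fold as measured (log2 fold change −2.64, SE 0.12, limma adjusted p = 1.91e-10), at rank 69. The lowest intensity on any array was 25.5, so a background or offset may remain in the values, which would compress the fold of a gene this dim.

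Krt7, a type II keratin of ducts and glands, did not pass the test. It read 49.4 and 56.8 in EpiSCs and 67.8 and 54.8 in parnate/mAMFGi cells, between the 49.4 and 59.0 percentiles of the arrays. The groups overlapped, and the log2 fold change was 0.20 (95% interval −0.05 to 0.45, limma adjusted p = 0.208). At this intensity, near the array medians, a low level and no expression could not be told apart. Within each array, the log2 intensity of Krt18 minus that of Krt8 was −0.42 and −0.31 in EpiSCs and −1.09 and −1.28 in parnate/mAMFGi cells. Krt18 thus fell further than Krt8 by 0.82 on the log2 scale as measured. The exact permutation p was 0.333 (two-sided), the smallest that 2 against 2 arrays can give. RNA came from whole cultures, in which fewer cells of a type and less RNA per cell cannot be told apart.

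Krt8 and Krt18 are neighbours on chromosome 15 and are transcribed away from each other. In RefSeq's GRCm38.p6 annotation Krt8 spans chr15:101996711-102004342 and Krt18 spans chr15:102028216-102032026, with 23.9 kb between them. Their upstream sequences are shown because the genes lie side by side and fell together. Each is the 250 bases before the annotated start, read 5′ to 3′ along the gene (RefSeq, GRCm38.p6), and capitals mark matches to the motifs searched.
Krt8, chr15:102004343-102004592, minus strand: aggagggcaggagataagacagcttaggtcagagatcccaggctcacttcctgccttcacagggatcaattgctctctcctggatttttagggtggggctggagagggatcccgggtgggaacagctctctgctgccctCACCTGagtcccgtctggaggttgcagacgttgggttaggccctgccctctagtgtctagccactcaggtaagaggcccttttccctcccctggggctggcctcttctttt
Krt18, chr15:102027966-102028215, plus strand: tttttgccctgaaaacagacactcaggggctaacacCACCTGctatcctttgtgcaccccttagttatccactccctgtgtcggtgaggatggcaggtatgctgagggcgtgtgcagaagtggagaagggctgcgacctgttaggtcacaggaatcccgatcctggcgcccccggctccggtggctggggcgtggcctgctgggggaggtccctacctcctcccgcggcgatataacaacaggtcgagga
The motifs were CACCTG (an E-box bound by the Snai and Zeb repressors), GGGCGG (the GC box of Sp and Klf factors), TGANTCA (AP-1) and TATAAA (the TATA box), each sought on both strands. They occurred in 17.2%, 32.7%, 6.75% and 12.4% of 32851 annotated upstream windows of this length. Krt8 held 1 match, CACCTG with its first base at position −111 from the start, and Krt18 held 1, CACCTG at −214. CACCTG was not particular to this pair. It also occurred upstream of Krt7 (−44), Cldn4 (−14) and Cldn6 (−93) and in a window of Cldn7 (nearest at −57). The bases were 58.0% G or C with 3 CpG in Krt8 and 60.4% with 12 CpG in Krt18, against medians of 52.4% and 6 over all windows. A match is a description of the sequence and not evidence of binding.

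Cdh1 and Cldn4 rose by about the same amount. Cdh1 (chr8:106603350-106670247) read 963.8 and 796.3 in EpiSCs and 1974 and 2022 in parnate/mAMFGi cells. Both converted arrays lay above both EpiSC arrays, and the rise was 2.28-fold (log2 fold change 1.19, SE 0.11, 95% interval 0.96 to 1.42, limma adjusted p = 3.31e-07). Cldn4 (chr5:134945123-134946934), which encodes a claudin with a cytoplasmic end that binds tight junction scaffolds, read 491.9 and 545.2 in EpiSCs and 1233 and 1176 in parnate/mAMFGi cells. The groups again did not overlap, and the rise was 2.33-fold (log2 fold change 1.22, SE 0.10, 95% interval 1.01 to 1.43, limma adjusted p = 1.02e-07). Cdh1 ranked 599 and Cldn4 564 among 16593 genes ordered from the largest rise.

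The other 3 claudins fell, to different extents. Cldn3 (chr5:134986214-134987476), a barrier-forming claudin, read 185.0 and 184.4 in EpiSCs and 64.0 and 54.8 in parnate/mAMFGi cells. The groups did not overlap, and the fall was 3.12-fold as measured (log2 fold change −1.64, SE 0.10, limma adjusted p = 7.05e-09). Its values in parnate/mAMFGi cells were near the array medians. Cldn6 (chr17:23679348-23682446), a claudin of embryonic epithelia and pluripotent cells, read 4540 and 4054 in EpiSCs and 3219 and 2514 in parnate/mAMFGi cells. Its lowest standing on any array was the 96.3 percentile, and it fell by 1.51-fold (log2 fold change −0.59, SE 0.12, 95% interval −0.85 to −0.34, limma adjusted p = 8.29e-04). The parnate/mAMFGi arrays differed from each other by 0.36 on the log2 scale for Cldn6, and the gap between the groups was 0.33. Cldn7 (chr11:69964779-69967886), a claudin of basal and lateral membranes, read 81.0 and 78.7 in EpiSCs and 58.0 and 66.2 in parnate/mAMFGi cells. Its fall was 1.29-fold (log2 fold change −0.37, SE 0.10, limma adjusted p = 0.00796). Without parnate/mAMFGi replicate 1 the adjusted p was 0.149, in a range of 0.00344 to 0.149 over 14 alternatives.

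**Figure D2:**
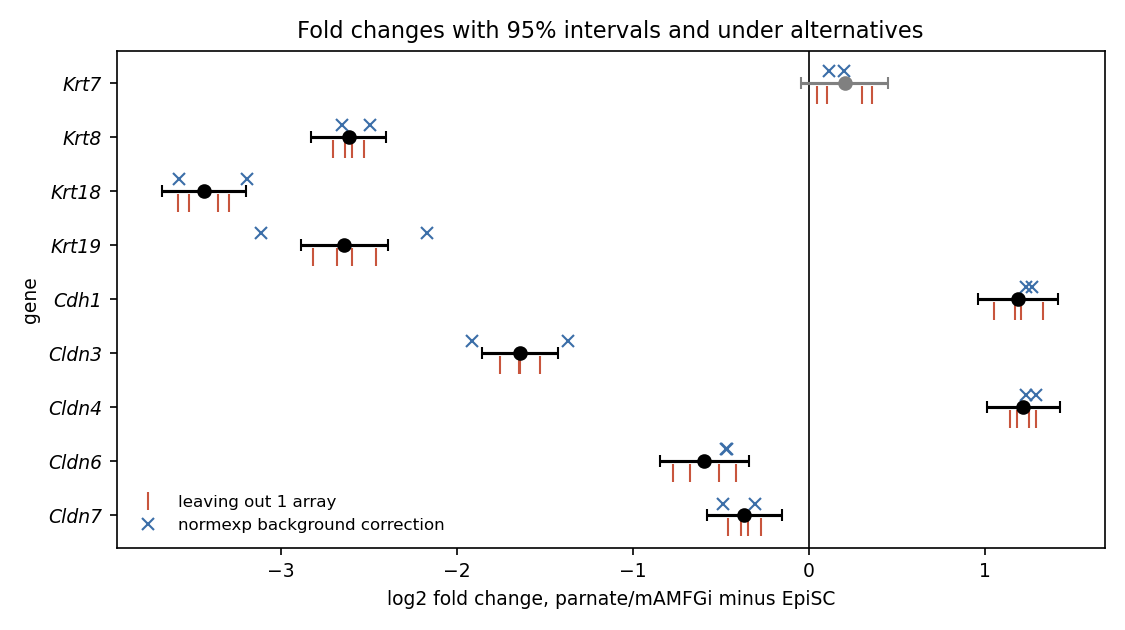
Log2 fold change of each gene with its 95% interval from limma (points and bars, grey where the adjusted p was above 0.05), beside the values after leaving out 1 array (red ticks) and after 2 normexp background corrections (blue crosses). Krt18 lies lowest at −3.44, Cdh1 and Cldn4 lie at 1.19 and 1.22, and each gene keeps its sign in all these fits.

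Cldn4 and Cldn3 are also neighbours transcribed away from each other, with 39.3 kb between them on chromosome 5, and they changed in opposite directions. Within each array the log2 intensity of Cldn4 minus that of Cldn3 was 1.41 and 1.56 in EpiSCs and 4.27 and 4.42 in parnate/mAMFGi cells. The difference moved by 2.86 on the log2 scale (exact permutation p = 0.333, two-sided, the smallest possible with 2 against 2 arrays). Their upstream sequences are shown, in the same manner as for the keratins, as the pair that lies side by side and did not move together.
Cldn4, chr5:134946935-134947184, minus strand: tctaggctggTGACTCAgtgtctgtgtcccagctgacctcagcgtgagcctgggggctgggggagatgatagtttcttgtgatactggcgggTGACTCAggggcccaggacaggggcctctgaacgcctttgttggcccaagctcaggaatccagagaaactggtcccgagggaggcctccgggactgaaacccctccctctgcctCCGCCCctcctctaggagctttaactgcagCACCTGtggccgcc
Cldn3, chr5:134985964-134986213, plus strand: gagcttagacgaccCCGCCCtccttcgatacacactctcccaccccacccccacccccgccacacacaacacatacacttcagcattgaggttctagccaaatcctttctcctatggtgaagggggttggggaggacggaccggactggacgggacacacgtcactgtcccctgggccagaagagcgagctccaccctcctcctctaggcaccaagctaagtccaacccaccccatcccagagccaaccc
Cldn4 held CACCTG at −14, GGGCGG (as CCGCCC) at −44 and 2 matches to TGANTCA, the nearer at −158. Cldn3 held 1 match, GGGCGG (as CCGCCC) at −236. G or C made up 62.0% of the window of Cldn4 and 60.8% of that of Cldn3, with 7 and 9 CpG. Of the 9 measured genes, 7 had upstream windows in the RefSeq table, Krt7, Cldn6 and Cldn7 among them, and Cdh1 and Krt19 are named only.

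The nearest measured genes were read on each side of every member, 2 per side, a set chosen after values had been seen. Of 28 neighbours that are no member, 3 rose, 9 fell and 16 did not pass, a share near the 41.5% called over all genes. Beside Krt8 and Krt18, Krt79, Krt78 and Tns2 did not pass (log2 fold changes −0.07, 0.22 and 0.02), and the translation factor gene Eif4b fell with a log2 fold change of −0.84. Around the claudin pair, Mettl27 (−1.09) and the syntaxin gene Stx1a (−0.85) fell and Abhd11 (0.71) rose on the log2 scale, so calls in both directions alternated along the chromosome. Cdh3, the P-cadherin gene, lies 46.4 kb from Cdh1 and fell while Cdh1 rose. It read 411.2 and 351.7 in EpiSCs and 173.0 and 155.5 in parnate/mAMFGi cells. The log2 fold change was −1.21 (SE 0.11, limma adjusted p = 2.58e-07). Of its 4 probes, 2 fell and the 2 dim ones did not pass, with 0.07 and 0.01, so that the mean over its probes gave −0.56.

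**Figure D3:**
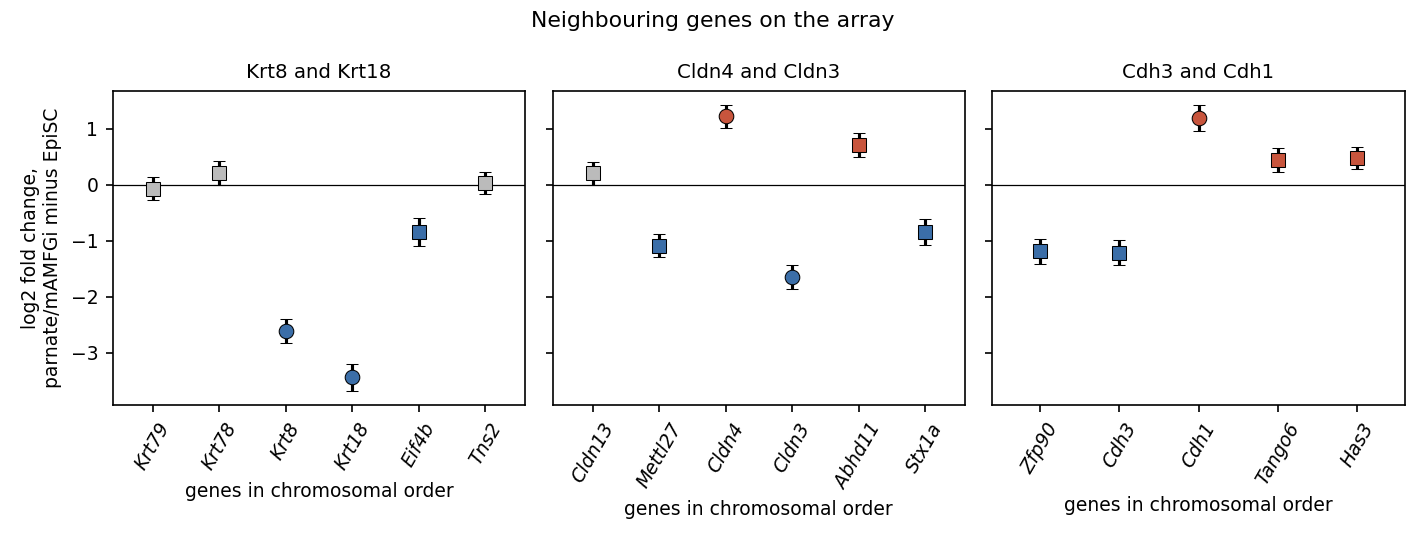
Log2 fold change with 95% interval of measured genes in chromosomal order around Krt8 and Krt18, Cldn4 and Cldn3, and Cdh1 (circles for the genes of the group, squares for neighbours; blue lower, red higher, grey not past the threshold). Krt8 and Krt18 fell side by side between genes that changed by 0.84 or less on the log2 scale, whereas Cldn4 and Cldn3, and Cdh1 and Cdh3, lie on opposite sides of 0.

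Other keratin, claudin and cadherin genes were mostly dim. The shares called were 28.6% for other keratins, 28.6% for other claudins and 36.4% for other cadherins, against 41.5% of all genes. Of 14 other keratins, 2 rose, 2 fell and 10 did not pass, and 10 were at or below the array median on all 4 arrays. The epidermal keratins Krt5 and Krt14 were among those that did not pass (log2 fold changes 0.07 and 0.17), though Krt14 had an adjusted p of 0.0439 without EpiSC replicate 2. Krt42, a type I keratin, read 53.7 and 56.7 in EpiSCs and 195.9 and 164.6 in parnate/mAMFGi cells, a log2 fold change of 1.70 (limma adjusted p = 6.74e-09). Krt17 rose by 0.61 and Krt10, a keratin of the upper epidermis, fell by 0.77 on the log2 scale. Krt10 read 254.3 and 388.3 in the EpiSC arrays, and its log2 fold change was −0.46 without EpiSC replicate 2. Of 14 other claudins, 0 rose, 4 fell and 10 did not pass in limma, with the same counts of 0 and 4 at an unadjusted p of 0.05. Cldn11, a claudin of myelin and the testis barrier, read 506.6 and 387.1 in EpiSCs and 40.4 and 45.7 in parnate/mAMFGi cells, below the array medians. Its log2 fold change was −3.37 (SE 0.12, limma adjusted p = 2.86e-11), a fall close in size to that of Krt18. Cldn12 fell by 1.05 and Cldn23 by 0.52 on the log2 scale, while Cldn9, 138 bases from Cldn6 and a close relative of it, did not pass (0.13). Of 11 other cadherins, 4 fell and 7 did not pass. After Cdh3, the largest falls were in Cdh6 (−0.56) and Cdh22 (−0.40), at intensities near the array medians in EpiSCs and below them in parnate/mAMFGi cells. The call of Cdh22 was lost without parnate/mAMFGi replicate 1 (adjusted p = 0.051) or replicate 2 (0.0619). The N-cadherin gene Cdh2 stood at −0.25 (limma adjusted p = 0.0502) and was dim in both groups. It passed under 6 of 13 alternatives, with adjusted p-values from 0.0113 to 0.739.

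Partner genes of the junctions changed in both directions. Over 10 lists of keratins, claudins, cadherins, junction partners, regulators and other filaments, 118 genes were measured, of which 27 rose, 33 fell and 58 did not pass. The share called was 50.8%, against 41.5% of all genes, and the median log2 fold change was 0.02, as over all genes. Of 16 tight junction partners, 5 rose, 8 fell and 3 did not pass (81.2% called), with a median of −0.27. Patj, a scaffold of the Crumbs polarity complex, fell by 1.59 on the log2 scale by its brightest probe. Of its 5 probes 3 did not pass, and the mean over them gave −0.44. Tjp3 (ZO-3), a claudin-binding scaffold, fell by 1.17. Jam2, a junctional adhesion molecule, read 90.8 and 99.1 in EpiSCs and 553.1 and 536.4 in parnate/mAMFGi cells, a log2 fold change of 2.52 (limma adjusted p = 4.19e-11), and its other 3 probes rose too, with 1.41 for the mean over its probes. Ocln (occludin) fell by 0.29 and Tjp1 (ZO-1) rose by 0.45 on the log2 scale. Both calls depended on single arrays. Ocln was lost without EpiSC replicate 1 (adjusted p = 0.14), parnate/mAMFGi replicate 1 (0.0883) or parnate/mAMFGi replicate 2 (0.223). Tjp1 was lost without EpiSC replicate 2 (0.0841) or parnate/mAMFGi replicate 2 (0.254).

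Of 11 adherens junction partners, 3 rose, 2 fell and 6 did not pass (45.5% called, against 41.5% of all genes), with a median of 0.00. The beta-catenin gene Ctnnb1 read 7843 and 6524 in EpiSCs and 7251 and 7215 in converted cells (log2 fold change 0.02, limma adjusted p = 0.938). The alpha-catenin gene Ctnna1, which links the cadherin complex to actin, fell by 0.61 on the log2 scale, and the actin-binding vinculin gene Vcl fell by 1.13. Nectin3, an immunoglobulin-type adhesion molecule of the same junctions, rose by 1.30 by its brightest probe, while 2 of its 4 probes did not pass and their mean gave 0.63. The probes of Ctnnd1 and Jup were at or below the array medians and did not pass (log2 fold changes −0.00 and −0.13). The desmosome list of 10 genes split into 2 rises, 2 falls and 6 that did not pass (40% called). The plakophilin gene Pkp2 read 1404 and 1244 in EpiSCs and 825.1 and 822.5 in converted cells (log2 fold change −0.68, limma adjusted p = 4.21e-05). Ppl (periplakin), which ties keratin filaments to the desmosome region, fell by 0.76 (−0.33 for the mean over its 2 probes), and the desmosomal cadherin gene Dsg2 rose by 0.60.

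**Figure D4:**
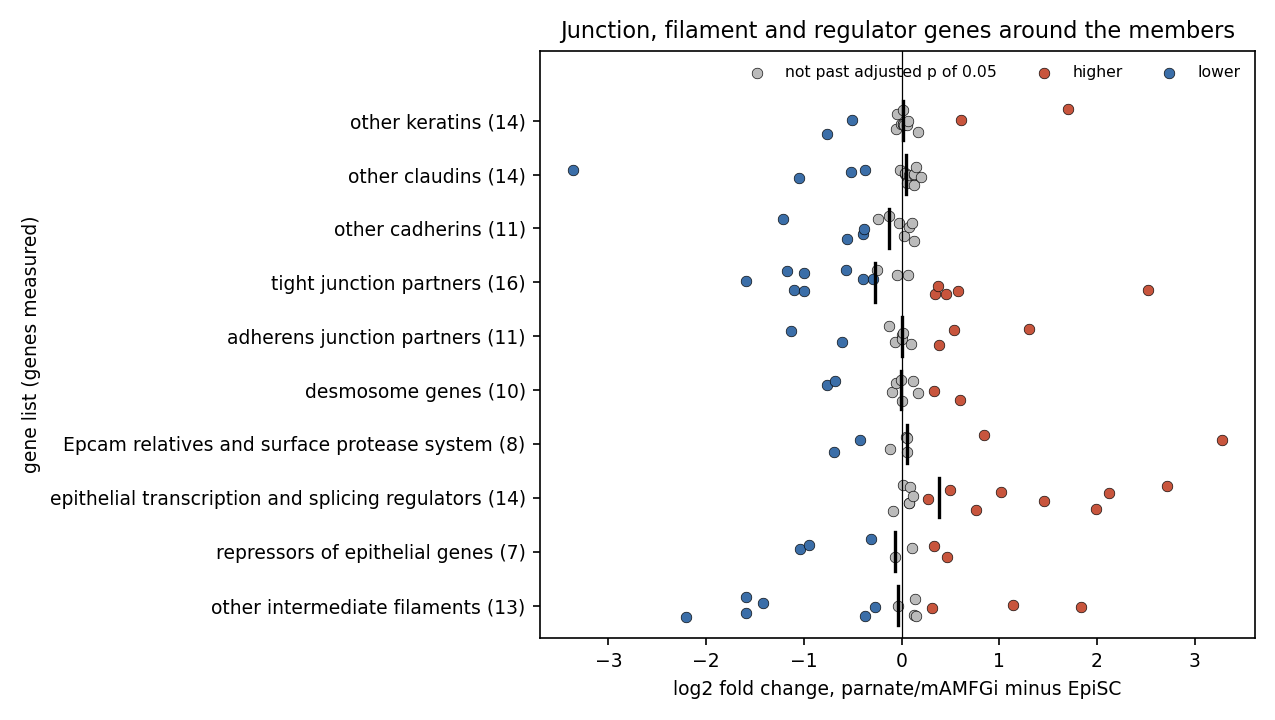
Log2 fold change of each measured gene (points) in 10 lists, with each list's median as a black bar (red higher, blue lower, grey not past an adjusted p of 0.05). The regulator list has 8 genes on the higher side and 0 on the lower side past the threshold, while the junction lists spread to both sides.

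Genes of epithelial transcription factors and splicing regulators were called in 1 direction. Of 14 measured, 8 rose, 0 fell and 6 did not pass in limma, with a median of 0.38, where 20.2% of all genes rose. The share called was 57.1%, against 41.5% of all genes. This list, too, was chosen with earlier results of these data known. At an unadjusted p of 0.05 the counts were also 8 and 0, and the lowest log2 fold change in the list was −0.09. Klf5, a factor of simple epithelia and of ES cells, read 812.6 and 750.7 in EpiSCs and 4947 and 5337 in converted cells (log2 fold change 2.72, SE 0.10, limma adjusted p = 2.18e-11). Tfap2c, a factor of trophoblast and germ cells, rose by 2.12 on the log2 scale. Grhl2, which activates Cdh1 and claudin genes in mouse epithelia, read 178.6 and 135.2 in EpiSCs and 541.5 and 700.6 in parnate/mAMFGi cells. The groups did not overlap, and its log2 fold change was 1.99 (SE 0.14, limma adjusted p = 2.56e-08). The splicing regulator gene Esrp1 was bright in both groups and did not pass (0.07), nor did Ovol2 (0.07). Grhl2, Cdh1 and Cldn4 were higher and Krt8, Krt18 and Cldn3 lower in the same arrays. Every claudin that passed the test other than Cldn4 was lower, and a link of Grhl2 to these genes was not tested.

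Of 7 measured repressors of epithelial genes, 3 fell, 2 rose and 2 did not pass (71.4% called, against 41.5% of all genes). Zeb1, a repressor of Cdh1, read 321.2 and 228.8 in EpiSCs and 138.3 and 143.4 in parnate/mAMFGi cells, a log2 fold change of −0.94 (SE 0.13, limma adjusted p = 3.10e-05). Snai3 fell by 1.04 and Snai1 rose by 0.46 on the log2 scale. The Snai1 probe that rose read 57.6 and 61.3 in EpiSCs and 84.6 and 79.2 in parnate/mAMFGi cells, and its second probe was dim and did not pass, so that their mean gave 0.25. Zeb2 did not pass (0.11). The mesenchymal filament gene Vim, often set against keratins, read 2640 and 2493 in EpiSCs and 2132 and 1833 in parnate/mAMFGi cells. Its log2 fold change was −0.38 (limma adjusted p = 0.00802), so Vim fell in the same arrays as Krt8, Krt18 and Krt19, by far less. The Vim call was lost without parnate/mAMFGi replicate 2 (adjusted p = 0.161) and after normexp correction with offset 16 (0.0795).

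Markers of other keratin-bearing cells and of feeders were read beside these results. The shares called were 50% of trophoblast, 63.6% of endoderm and 76.9% of feeder markers, against 41.5% of all genes. Of 10 trophoblast markers, 5 rose, 0 fell and 5 did not pass in limma (1 fell at an unadjusted p of 0.05), and Elf5, Hand1, Tpbpa and Plet1 were at or below the array medians on all 4 arrays. The summed intensity of the list was 464.4 to 494.1 in EpiSCs and 702.5 to 708.9 in parnate/mAMFGi cells, with Gata2 (1.62), Gata3 (1.27) and Tead4 (0.82) leading on the log2 scale. In EpiSCs these genes read near or below the array medians, which limits the size of their folds. A further probe of Tead4 did not pass (0.12), and the mean over its probes gave 0.55. Of 11 endoderm markers, 7 rose, 0 fell and 4 did not pass in limma (0 fell at an unadjusted p of 0.05 too). Gata4, Foxa2, Afp and Ttr were at or below the medians on all 4 arrays, and the sum was 796.4 to 846.1 against 1079 to 1082. The leading rises there were in Amn (1.40), Sox7 (1.25) and Hnf4a (0.74), of which Sox7 and Hnf4a also read near or below the array medians in EpiSCs. The feeder list of 13 measured fibroblast genes had 9 that rose, 1 that fell and 3 that did not pass, with sums of 4110 to 6519 in EpiSCs and 6524 to 6900 in parnate/mAMFGi cells. Acta2 alone made up 2881 to 5143 of these sums and did not pass, and Postn was at or below the medians on all arrays. Lox (4.23), Col1a1 (2.21) and Dcn (1.98) led the rises, and the gene that fell was Thy1 (−1.04). The part of feeder RNA in the results was not tested.

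Markers of the labelled cell states were read as a check of the labels. The shares called were 88.9% of ES cell, 70% of EpiSC and 60% of shared pluripotency markers, against 41.5% of all genes. Of 9 ES cell markers, 8 rose and 1 did not pass, led by Zfp42 (log2 fold change 5.49), Esrrb (5.06) and Klf2 (5.02). Of 10 EpiSC markers, 5 fell, 2 rose and 3 did not pass, with Lefty1 at −3.20, Fgf8 at −2.74 and Pou3f1 at 1.19. The other rise was in Otx2 (0.59), the brightest of the list. The summed intensity of the list was higher in parnate/mAMFGi cells, at 7180.5 to 7360.8 against 5948.5 to 6073.2 in EpiSCs. Of 5 shared pluripotency genes, Sox2 (1.66), Sall4 (1.42) and Utf1 (1.18) rose and 2 did not pass. Median intensities were 50 and 50.3 on the EpiSC arrays and 52 on each converted array. Across probes, which are not independent replicates, log2 intensities correlated at 0.996 and 0.998 within the groups and at 0.942 to 0.945 between them.

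Genes with the most similar pattern over the 4 arrays were found by the Euclidean distance between log2 intensities centred on each gene's mean, among the 8839 genes at or above the median probe intensity. Nearest to Krt18 were Cotl1, Aldoc and Svop, at distances of 0.13, 0.16 and 0.17. Nearest to Krt8 were Prkra (0.09), Gabarapl1 (0.09) and Scg5 (0.10), and nearest to Krt19 were Papss1 (0.08), Zfp334 (0.08) and Gbp2 (0.10). Nearest to Cdh1 were Ftsj3, Tsr1 and Fntb, all at 0.04. With 4 arrays in 2 groups, these distances reflect mainly the size of the fold change and are given as a description.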

How the data were processed

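Values were the authors' deposited processed intensities on a linear scale, 1 per probe and array. Per the labels' protocols, biotin-labelled cRNA was made from total RNA with the Illumina TotalPrep kit. Which software, background correction and normalization made them is, for these samples, not given in the sources used here. A further deposited table has 8 columns of signals and detection values under names that match no label. These were left out; detection is therefore unknown, and the planned detection filter was not run. Intensities were log2-transformed without pseudocount, normalization or filter and fitted by group in limma 3.58.1 (R 4.3.3; lmFit, eBayes). Benjamini-Hochberg adjustment ran over 25697 probes, on 2 arrays per group with 2 residual and 11.8 prior degrees of freedom. The number of arrays limits the precision. Gene names came from the platform annotation, in which 23978 probes had 1 symbol, 0 several and 1719 none. RefSeq (GRCm38.p6) held 23962 of the probes' genes, and 0 symbols changed. A gene is represented by its brightest probe. Of 63 named genes outside the group, 21 had several probes. For 7 of these (Cdh3, Nectin3, Patj, Ppl, Snai1, Synm and Tead4) the calls differed, none in opposite directions, and the 11 probes that did not pass read 32.5 to 64.4. Named genes were all members, up to 3 called genes with the largest change in each partner list (up to 3 of any call in each marker list) and genes fixed by name. Members and lists were chosen with earlier results of these data known. No slide or scan date was given.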

Additional observations from a re-analysis of the deposited data

How the results depend on the processing

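Over 14 alternatives, every gene of the group kept its direction in all 14, though some of the alternatives could not change it. The counts of 2 rises and 6 falls among the 9 genes held in each, except that 5 fell without parnate/mAMFGi replicate 1. There Cldn7 had a log2 fold change of −0.27, in a range of −0.46 to −0.27 over the 4 fits that left out 1 array. Krt7 ranged from 0.05 to 0.36 and did not pass in any. Background correction by normexp moved Krt19 most, to −2.17 with offset 50 and −3.11 with offset 16. The agreement in direction was partly fixed in advance, because each measured member had 1 probe. For such a gene the mean over probes and the restriction to brighter probes leave the fold change as it was. So do the trend and robust options of eBayes and a block for replicate number. Changed probes numbered 3737 to 5165 higher and 3753 to 5360 lower over 13 of the alternatives. Partner genes numbered 19 to 28 higher and 25 to 35 lower. Of 873 comparisons for 63 named genes outside the group, 847 kept their direction and call, 9 lost the call, 7 gained it and 10 turned sign. The 10 belonged to 7 genes that passed in neither fit. In these comparisons, too, some of the alternatives could not change the direction. Over the fits that left out 1 array, the log2 fold change of Krt5 ran from −0.055 to 0.19, Jup from −0.27 to 0.016 and Ovol2 from −0.0015 to 0.14, each turning without EpiSC replicate 1. Ctnnb1 ran from −0.12 to 0.15, Ctnnd1 from −0.043 to 0.042, Spint1 from −0.050 to 0.17 and Esrp1 from −0.024 to 0.17, each turning without EpiSC replicate 2, and Ctnnd1 also without parnate/mAMFGi replicate 1. Ctnnb1 also stood at −0.036 with array medians made equal and at −0.0018 for the mean over its probes. The differences between replicates correlated at −0.06 across probes, so no large effect shared by replicate number was seen. Whether the replicate numbers pair the samples is not given in the labels. With the replicate number as a block, 2 members rose and 6 fell, and 5084 probes were higher and 4828 lower. The slide as a block and the detection filter were not run. Intensities near or below the array medians limit Krt7, Krt19, Cldn3 and Cldn7.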

Other observations

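Intermediate filament genes other than keratins changed in both directions as well. Of 13 measured, 3 rose, 6 fell and 4 did not pass in limma (69.2%, against 41.5% of all genes), with a median log2 fold change of −0.03. The neurofilament gene Nefm read 245.9 and 246.5 in EpiSCs and 56.2 and 50.4 in parnate/mAMFGi cells, a log2 fold change of −2.21. Its partner Nefh read 41.9 and 45.5 in EpiSCs and 163.5 and 148.8 in parnate/mAMFGi cells, a log2 fold change of 1.84. Synm (synemin), which binds other filaments, fell by 1.59 on the log2 scale by its brightest probe. Of its 3 probes 1 did not pass, and their mean gave −0.89.

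Of 8 surface proteins and proteases found with Epcam on epithelia, 2 rose, 2 fell and 4 did not pass in limma, with a median of 0.05. The share called was 50%, against 41.5% of all genes. Lgals3 (galectin-3), a sugar-binding protein, read 290.4 and 292.1 in EpiSCs and 2888 and 2777 in converted cells (log2 fold change 3.28, limma adjusted p = 1.78e-12). The tetraspanin gene Cd9 rose by 0.84 and the membrane protease gene Tmprss2 fell by 0.69 on the log2 scale. The inhibitors of such proteases, Spint1 and Spint2, both stood at 0.06 and did not pass.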
